A study of Rattus norvegicus with 16 samples.

Results

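The genes described here serve the uptake surface of the proximal tubule, the first stretch of the nephron after the glomerulus. They were chosen by name, as array probe sets carrying exactly 1 of 10 symbols: Lrp2, Cubn, Amn, Dab2, Folr1, Pdzk1, Pdzk1ip1, Cdh16, Ggt1 and Miox. At gene level 9 of them had 1 probe set each, among 12238 distinct named genes, and at exon level the same 9 had 221 of 213067 probe sets. Ggt1 was not analysed here at either level.

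Total RNA came from whole embryonic kidneys of male rats of 2 inbred strains, with 4 samples per strain and no treatment. Kidneys of MWF (Munich Wistar Frömter, a strain with inherited albuminuria) were taken at E15.5, and kidneys of SHR (the spontaneously hypertensive rat) at E16.0. The same 8 Affymetrix rat gene arrays were deposited as 1 value per gene and as 1 value per exon probe set, and these 2 readings share their RNA. Each strain was taken at its own age, and the effects of strain and of embryonic day cannot be told apart. Whether each sample is a separate animal or litter is not stated in the labels, and the p-values cover only the spread among these samples. In a whole kidney, fewer cells of a type and less RNA per cell cannot be told apart either.

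Megalin (Lrp2) and cubilin (Cubn) are large receptors on the apical membrane of proximal tubule cells that take filtered albumin, vitamin-binding proteins and other ligands back up from the tubular fluid. Cubilin has no membrane-spanning segment and reaches the surface together with amnionless (Amn), and the adaptor Dab2 links megalin to clathrin-coated pits. The brush border beside them carries scaffolds such as Pdzk1, which hold transporters in place, and enzymes such as gamma-glutamyltransferase (Ggt1). The question the strain comparison answers here is whether transcripts of this machinery differed in the embryonic kidney, before the nephrons have matured.

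In brief, 2 of the 9 genes passed the test between strains at gene level, both higher in MWF: Cdh16, a cadherin of kidney epithelia, and Pdzk1ip1, a small membrane protein that binds Pdzk1. Both calls depended on the arrays. Leaving out 1 array at a time ended the Pdzk1ip1 call in 7 runs and the Cdh16 call in 5. The endocytic receptors and their adaptor did not pass. Lrp2, Cubn, Dab2 and Folr1 were measured at -0.22, -0.14, -0.21 and -0.12 (log2, MWF minus SHR) and Amn at 0.15. At exon level, 1 probe set each of Cubn, Lrp2 and Cdh16 was lower in MWF by more than 1 on the log2 scale and departed from the other probe sets of its gene. These were 3 of 219 member probe sets tested for departure, where 0.97% of all probe sets departed. Leaving out 1 array at a time ended the Lrp2 departure in 7 runs and the call of the Cdh16 difference in 4. The Cubn difference and departure held in every such run. For the Cubn and Cdh16 probe sets the MWF values were low, in the range of the olfactory and vomeronasal receptor probe sets described below. In total 4 of 221 member probe sets were called at exon level (1.81%), a share near the 1.93% of all. A call here means a limma p adjusted by Benjamini-Hochberg over all probe sets of the table below 0.05.

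Against the whole table, 6.58% of 21371 gene-level probe sets passed, made up of 3.18% of the 21371 higher in MWF and 3.4% lower. The 2 of 9 members are 22.2%, a share that rests on few genes, chosen with earlier results of these data known. Strains did not overlap in 3 of the 9 members (Cdh16, Pdzk1ip1 and Dab2), against 14.4% of all probe sets. The median difference was -0.010 over the members and 0.023 over all probe sets, 3 members lay above 0 and 6 below, and 56.3% of all probe sets lay above 0.

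The arrays were not equally alike within a strain. On the first principal component of the gene-level values, with 46.8% of the variance, MWF lay between -20.8 and -15.7, SHR replicates 1, 3 and 4 between 25.0 and 27.8, and SHR replicate 2 at -1.63. The mean of 4 sympathoadrenal genes (Th, Dbh, Chga and Chgb) was 6.03 in SHR replicate 2, 10.78 to 11.16 in the other SHR arrays, 8.14 in MWF replicate 1 and 6.14 to 6.30 in the other MWF arrays. Results that rest on SHR replicate 2 are given with and without it below. Markers of kidney progenitors and podocytes were measured in all arrays, with list means of 9.41 to 9.53 in MWF and 9.42 to 9.46 in SHR over 8 genes, and none of the 8 was called. These means average genes that moved in opposite directions. Osr1 (-0.42), Cited1 (0.33) and Pax2 (0.34) had the smallest p-values (limma adjusted p = 0.0633, 0.129 and 0.131). With SHR replicate 2 removed 1 of the 8 was higher, and with MWF replicate 3 removed 1 was lower.

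For orientation on low signal, 49 gene-level probe sets of olfactory and vomeronasal receptors, which kidneys are not known to use broadly, had a median of 6.52 and a 95th percentile of 8.03. Over all arrays, 6 of the 9 members lay at or below that percentile (Cubn, Amn, Folr1, Pdzk1, Pdzk1ip1 and Miox), and Lrp2, Dab2 and Cdh16 lay above it. The median of all gene-level probe sets was 8.17, close to that percentile. A value below the percentile therefore does not show that a gene was silent. Probes differ in their affinity and no detection calls were used, so these values do not rank the members. Miox and Pdzk1ip1 lay below the median of the receptors.

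The sequence before the start of 4 members is shown to let the endocytic receptors be set beside the scaffold and its partner. Each line gives 250 bases upstream of 1 RefSeq transcript start, 5′ to 3′ on the strand of the gene, with matches to 2 short motifs in capitals. The motifs were GTTAAT, the core of sites bound by HNF1 factors, and CAAAGTC, of the type bound by HNF4A, both regulators of proximal tubule genes. Both strands were searched, so ATTAAC and GACTTTG count as matches.
Lrp2 (GRCr8 chr3:74754536-74754785, minus strand): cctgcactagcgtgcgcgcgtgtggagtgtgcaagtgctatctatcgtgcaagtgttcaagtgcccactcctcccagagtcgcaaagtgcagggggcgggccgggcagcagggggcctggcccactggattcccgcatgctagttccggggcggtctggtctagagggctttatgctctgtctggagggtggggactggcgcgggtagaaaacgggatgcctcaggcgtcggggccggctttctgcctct
Cubn (GRCr8 chr17:81501695-81501944, minus strand): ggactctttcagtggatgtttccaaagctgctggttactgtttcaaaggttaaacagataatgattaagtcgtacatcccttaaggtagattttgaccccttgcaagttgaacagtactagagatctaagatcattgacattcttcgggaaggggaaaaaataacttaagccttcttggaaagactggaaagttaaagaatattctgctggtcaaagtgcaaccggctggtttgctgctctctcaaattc
Pdzk1ip1 (GRCr8 chr5:133854822-133855071, plus strand): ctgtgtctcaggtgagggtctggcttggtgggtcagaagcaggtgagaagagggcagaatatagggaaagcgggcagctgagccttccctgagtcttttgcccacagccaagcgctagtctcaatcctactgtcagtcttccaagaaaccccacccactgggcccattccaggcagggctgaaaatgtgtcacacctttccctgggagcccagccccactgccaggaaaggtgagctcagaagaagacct
Pdzk1 (GRCr8 chr2:187064745-187064994, plus strand): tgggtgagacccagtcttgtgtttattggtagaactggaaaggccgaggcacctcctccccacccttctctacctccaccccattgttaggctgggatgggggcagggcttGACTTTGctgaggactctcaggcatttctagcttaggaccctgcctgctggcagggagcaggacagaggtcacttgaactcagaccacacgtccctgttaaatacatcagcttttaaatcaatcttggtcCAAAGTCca

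Windows were at hand for 8 of the 10 genes, Cdh16 and Folr1 being named only. The window of Pdzk1ip1 lies inside the span of its gene, so its start is that of 1 of several transcripts. GTTAAT was in 1 of the 8 windows, that of Miox (149 bases before the start), and in 6.45% of 33469 windows of the genome. CAAAGTC was in 1 of the 8, that of Pdzk1, where it began 9 bases before the start on the strand of the gene and 139 bases before it on the other strand, and in 3.95% of all windows. A missing match says only that these letters are not in these 250 bases.

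Among the receptors, Lrp2 had the widest spread between arrays. Its gene-level log2 intensity was 8.51, 8.18, 8.62 and 8.92 in MWF replicates 1 to 4 and 9.09, 8.81, 8.66 and 8.56 in SHR replicates 1 to 4. The strains overlapped, with MWF replicate 2 lowest and SHR replicate 1 highest of all. The difference was -0.22 ± 0.16 (SE; MWF 8.56 ± 0.31, SHR 8.78 ± 0.23, SD, n = 4), and it did not pass (limma adjusted p = 0.470). Leaving out 1 array at a time moved it between -0.34 and -0.095.

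Cubn was measured at 6.52, 6.64, 6.51 and 6.52 in MWF and at 6.52, 6.65, 6.74 and 6.85 in SHR. SHR replicate 1 lay among the MWF arrays, and the other SHR arrays lay just above them. From 6.55 ± 0.06 in MWF to 6.69 ± 0.14 in SHR (SD, n = 4), the difference was -0.14 ± 0.08 (SE) and did not pass (adjusted p = 0.321). Amn, the partner that brings cubilin to the membrane, went the other way without passing. It was 7.62, 7.61, 7.69 and 7.63 in MWF and 7.36, 7.69, 7.37 and 7.55 in SHR, so that SHR replicate 2 lay at the top of the MWF range and the other 3 SHR arrays below it. Its difference was 0.15 ± 0.08 (SE; adjusted p = 0.331). Leaving out SHR replicate 2 gave 0.21, which did not pass either (adjusted p = 0.0968). Amn lies on chromosome 6, Lrp2 on chromosome 3 and Cubn on chromosome 17 of GRCr8.

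Folr1, the folate receptor that recovers folate from the tubular fluid, was 7.39, 7.59, 7.46 and 7.24 in MWF and 7.57, 7.60, 7.47 and 7.53 in SHR. The strains overlapped, and MWF replicate 4 was the lowest array. The difference of -0.12 ± 0.08 (SE) did not pass (adjusted p = 0.415).

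Dab2, the clathrin adaptor, separated the strains on these arrays without passing the test. It was 10.85, 10.85, 10.82 and 10.61 in MWF and 10.99, 10.95, 10.99 and 11.04 in SHR. Every MWF array lay below every SHR array, although MWF replicates 1 and 2 lay close to SHR replicate 2. The difference was -0.21 ± 0.07 (SE; MWF 10.78 ± 0.12, SHR 10.99 ± 0.04, SD, n = 4; adjusted p = 0.115), and 7% of all gene-level probe sets lay without overlap in this direction. Dab2 is also made by macrophages, whose 10 measured markers had list means of 7.22 to 7.55 in MWF and 7.46 to 8.14 in SHR, with 3 of the 10 lower in MWF (Coro1a, Lcp1 and Adgre1). Over all gene-level probe sets 3.4% were called lower. Coro1a and Lcp1 passed whichever array was removed, and Adgre1 did not (adjusted p up to 0.0576). Their part in the Dab2 value was not tested.

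**Figure D1:**
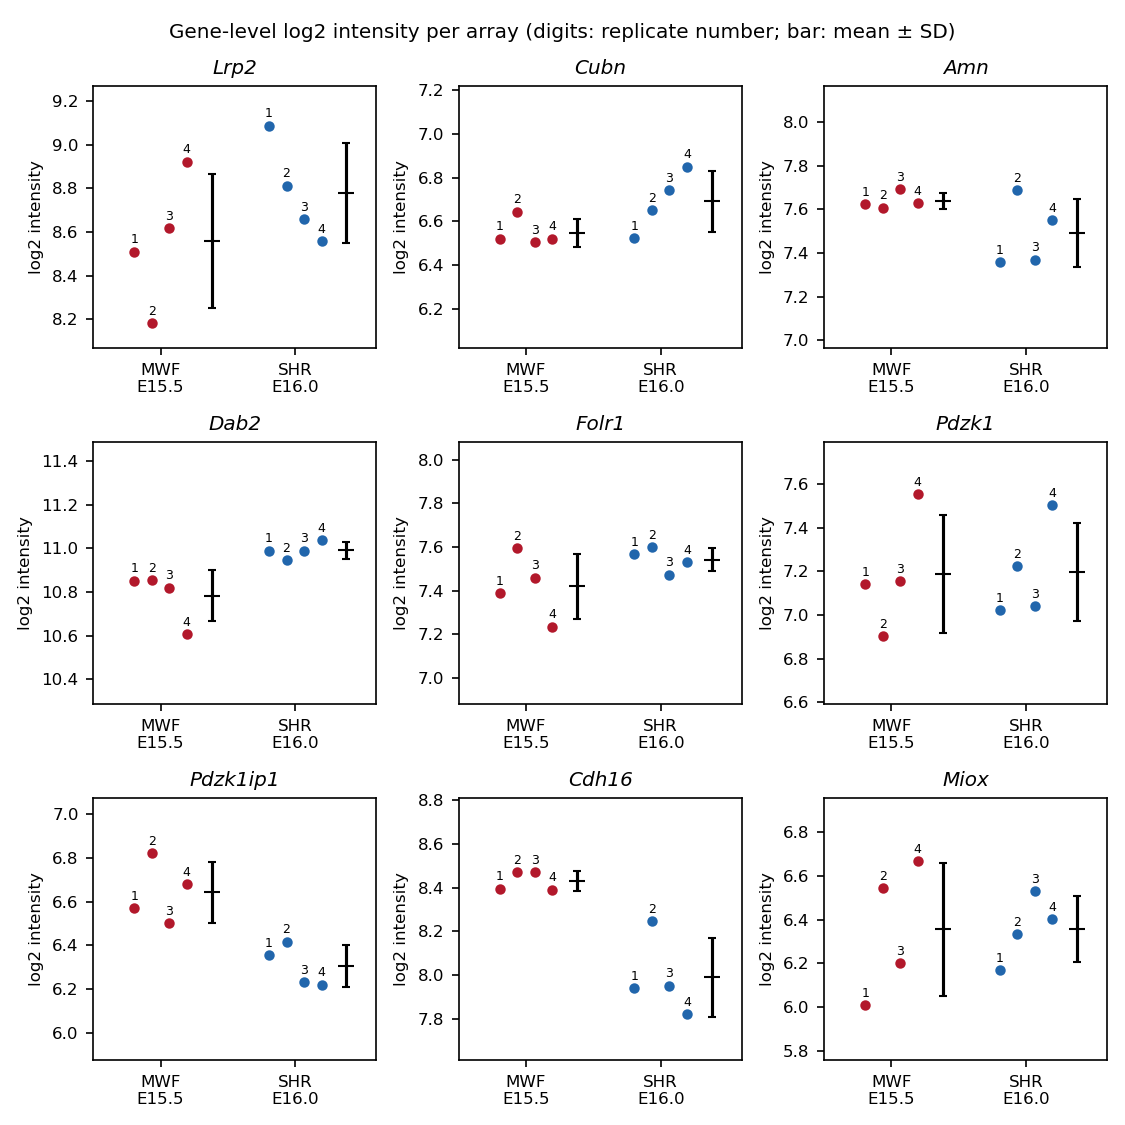
Gene-level log2 intensity (vertical axis, 1.2 log2 units in every panel) of the 9 genes in each array, MWF in red and SHR in blue, with digits for the replicate and a bar for the mean ± SD of 4 arrays. Cdh16, Pdzk1ip1 and Dab2 do not overlap between strains, and the Lrp2, Pdzk1 and Miox arrays of MWF spread over most of their panels.

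The scaffold Pdzk1 and its small partner Pdzk1ip1 behaved unlike each other. Pdzk1 was 7.14, 6.90, 7.15 and 7.55 in MWF and 7.02, 7.22, 7.04 and 7.50 in SHR. Replicate 4 was highest in each strain and the ranges were almost the same, with a difference of -0.010 ± 0.15 (SE; adjusted p = 0.978). Pdzk1ip1 was 6.57, 6.82, 6.50 and 6.68 in MWF and 6.36, 6.42, 6.23 and 6.22 in SHR. All MWF arrays lay above all SHR arrays, though the lowest MWF array and the highest SHR array were close. The difference was 0.34 ± 0.08 (SE; MWF 6.64 ± 0.14, SHR 6.31 ± 0.10, SD, n = 4; adjusted p = 0.0462).

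Both strain means lay in the range of the silent receptors, where a difference can understate a change in RNA, and no fold is given. This call was near the threshold. Removing any of the 4 MWF arrays, or SHR replicate 1, 3 or 4, ended it, with values of 0.28 to 0.38 and adjusted p-values up to 0.124. With SHR replicate 2 removed it was 0.37 (adjusted p = 0.0300). It was also lost after quantile normalization (0.31, adjusted p = 0.0752), with a variance trend (adjusted p = 0.0845) and with the sympathoadrenal mean as a covariate (0.23, adjusted p = 0.308). The median of its 2 exon-level probe sets per array gave 0.47 ± 0.08 (SE) and passed (adjusted p = 0.00597), where 4.96% of 16582 genes passed.

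Cdh16, which joins epithelial cells of the kidney tubules and collecting ducts, had the largest gene-level difference of the 9. It was 8.39, 8.47, 8.47 and 8.39 in MWF and 7.94, 8.25, 7.95 and 7.82 in SHR. The MWF arrays were close together and all above SHR, where replicate 2 stood above the other 3. The gene was higher in MWF by 0.44 ± 0.09 (SE; MWF 8.43 ± 0.05, SHR 7.99 ± 0.18, SD, n = 4; adjusted p = 0.0217). The SHR mean lay just under the 95th percentile of the silent receptors (8.03) and the MWF mean above it. With SHR replicate 2 removed the difference was 0.53 (adjusted p = 0.00141). Removing MWF replicate 2 or 3, or any of the other SHR arrays, ended the call at 0.39 to 0.43 (adjusted p up to 0.0642). It ended also with the sympathoadrenal covariate (0.25, adjusted p = 0.164). With the median of its exon-level probe sets the value was 0.40 ± 0.14 (SE), which did not pass (adjusted p = 0.142).

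Cdh16 is expressed along the ureteric bud and its branches as well as in tubules, so a list of ureteric bud and distal nephron genes is given beside it. The list mixes genes of the bud with genes of nephron segments. A called gene in it, such as Cldn10, is therefore not taken as a marker of the bud. Of 19 measured genes of the ureteric bud and distal nephron, 6 were higher in MWF, none was lower and all 19 lay above 0 in the deposited scale, with a median difference of 0.22 against 0.023 for all probe sets. Over all gene-level probe sets 3.18% were called higher. The 6 were the tight junction gene Cldn10 (1.04 ± 0.09, SE), the membrane protein gene Mal (0.57 ± 0.14), the collecting duct regulator Tfcp2l1 (0.49 ± 0.11), the RET-dependent factors Etv5 (0.43 ± 0.09) and Etv4 (0.38 ± 0.08), and the transcription factor gene Sim1 (0.36 ± 0.09). The list means were 8.17 to 8.26 in MWF, 8.08 in SHR replicate 2 and 7.87 to 7.92 in the other SHR arrays. The list, like the members, was chosen with earlier results of these data known. The part of these cells in the Cdh16 value was not tested. The count depended on the arrays. With SHR replicate 2 removed 9 of the 19 were higher, with MWF replicate 1 removed 4, and with any other array removed 1. It was 3 with the replicate block and 1 with the sympathoadrenal covariate. Cldn10 passed whichever array was removed, and the other 5 each failed when some single array was removed (adjusted p up to 0.112). Mal also failed after quantile normalization.

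Miox, an enzyme that opens the ring of inositol in proximal tubule cells, did not differ at gene level. It was 6.01, 6.55, 6.20 and 6.67 in MWF and 6.17, 6.33, 6.53 and 6.40 in SHR, with MWF replicates 1 and 4 at the ends and every SHR array between them. The difference was -0.0034 ± 0.15 (SE; adjusted p = 0.992). The median of its 10 exon-level probe sets gave another picture, with 5.32 to 5.62 in MWF and 4.98 to 5.25 in SHR, no overlap and a difference of 0.31 ± 0.09 (SE), which did not pass (adjusted p = 0.0769). All 10 probe sets lay below the 95th percentile of the receptor probe sets at exon level (6.98), so both values of Miox lie in the range of weak signal.

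**Figure D2:**
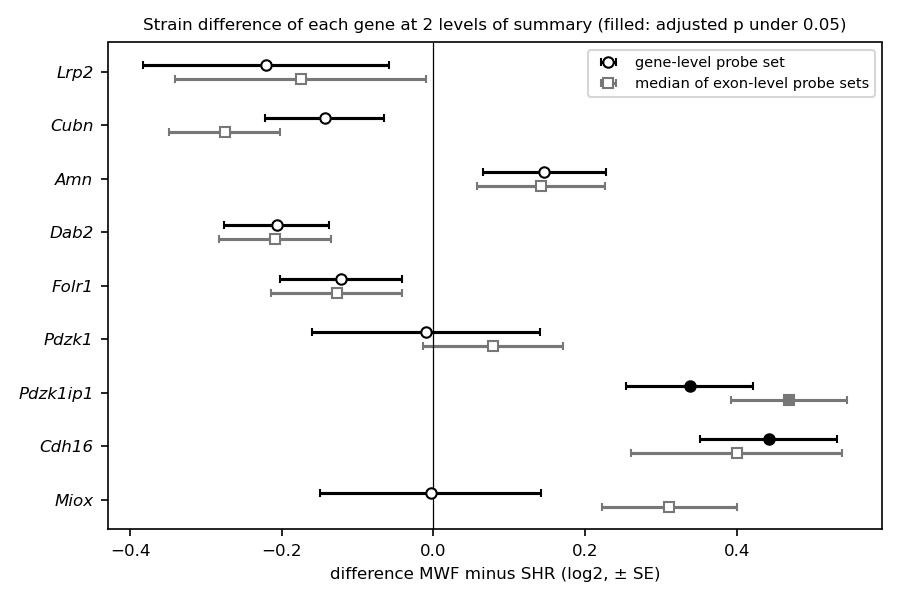
Difference between strains (horizontal axis, log2, MWF minus SHR, with SE) of each gene from its gene-level probe set (circles) and from the median of its exon-level probe sets (squares), filled where the adjusted p was under 0.05. Pdzk1ip1 passed at both levels, Cdh16 at gene level only, and Miox lay at -0.0034 and 0.31 at the 2 levels.

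With exon medians in place of the gene-level value, 1 of the 9 genes passed and strains did not overlap in 4 (Cubn, Dab2, Miox and Pdzk1ip1), against 11.3% of all genes. Cubn then lay at -0.28 ± 0.07 (SE), just short of the threshold (adjusted p = 0.0590). Its medians were 5.09 to 5.29 in MWF and 5.38 to 5.53 in SHR, the 2 ranges lying close to each other. They also lay near the median of the exon-level receptor probe sets (5.33), in the range of weak signal. The 8 Cubn probe sets above that range had 7 values above 0 and a median difference of 0.10. Lrp2 (-0.18), Dab2 (-0.21), Folr1 (-0.13) and Amn (0.14) stayed within 0.05 of their gene-level values.

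The exon-level table follows the same transcripts piece by piece. Probe sets of a gene share their arrays and their RNA, so they are not replicates of each other. In simulated data, 100 probe sets were changed by 0.5 and 100 by 1 (log2). The exon-level fit recovered 2% and 40% of them, and the gene-level fit 67% and 94%. An exon probe set that was not called may thus still differ. In the data 4112 exon-level and 1407 gene-level probe sets were called, more than were changed in the simulation. The adjustment is stricter where fewer probe sets change. These percentages therefore do not give the recovery in the data, nor a fair contrast of the 2 levels. Over all members 85 of 221 probe sets lay above 0, 38.5% against 52.5% of all exon-level probe sets, with a median of -0.094 against 0.011. Of the 221, 4 were called (1.81%), where the background was 1.93% (0.892% higher and 1.04% lower in MWF), and 22 did not overlap between strains (9.96%), where the background was 8.83%. An unadjusted p under 0.05 was reached by 44 of them, and by 13.7% of all exon-level probe sets.

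Within Dab2 and Lrp2 most pieces lay on the same side. Of 18 Dab2 probe sets 17 lay below 0, with a median of -0.22, a lowest value of -0.48 and 8 without overlap, and none was called. Leaving out the dim ones, 16 Dab2 probe sets lay above the receptor percentile and all of these were below 0. Of 83 Lrp2 probe sets 67 lay below 0, with a median of -0.19, which was also the median of the 63 brighter ones. All 4 Folr1 probe sets lay between -0.23 and -0.060, and none was called.

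Cubn gave a different result for bright and dim probe sets. Of its 65 probe sets 38 lay below 0, with a median of -0.065. The 8 that lay above the receptor percentile had 7 values above 0 and a median of 0.10. The other Cubn probe sets lay in the signal range of the silent receptors. Amn had 10 of 12 probe sets above 0, with a median of 0.046 and a highest value of 0.39. Pdzk1 had 4 of 9 above 0, with values from -0.38 to 0.39, and 1 of the 9 lay above the receptor percentile.

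In Cdh16 nearly all probe sets lay on 1 side. Of 18 probe sets 17 lay above 0, from 0.29 to 0.98, and 4 of these did not overlap between strains. None of the 17 was called at exon level. Both probe sets of Pdzk1ip1 were above 0 without overlap, at 0.41 and 0.53, and neither was called. In Miox 8 of 10 were above 0, and 1 was called, probe set 10898567, the fifth in order of probe-set number. It was 5.81, 5.60, 5.86 and 5.90 in MWF and 5.15, 4.86, 5.25 and 5.19 in SHR, higher by 0.68 ± 0.12 (SE; adjusted p = 0.0224), with all 8 arrays in the range of the silent receptors. Removing MWF replicate 1, 3 or 4, or SHR replicate 1 or 4, ended this call (adjusted p up to 0.0744).

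The other 3 called probe sets lay apart from their genes. To test this, the median over a gene's probe sets was subtracted from each probe set on each array, and the deviations were fitted in limma over 169253 probe sets of genes with at least 3. Of 219 member probe sets tested, 3 departed, all lower in MWF, where 0.97% of all probe sets were called and 0.451% were called lower. In simulated data this fit recovered 1% of departures of 0.5 and 38% of departures of 1 (log2). Fewer probe sets were changed there than the 1641 called in the data, so these percentages do not give the recovery in the data.

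In Cubn it was probe set 10799746, the first of 65 in order of probe-set number. Its log2 intensity was 4.67, 4.96, 5.50 and 5.76 in MWF and 7.23, 7.86, 7.58 and 7.61 in SHR. No MWF array came within 1 log2 unit of any SHR array, and the gap exceeded the spread within each strain. It was lower in MWF, at -2.34 ± 0.24 (SE; MWF 5.22 ± 0.50, SHR 7.57 ± 0.26, SD, n = 4; adjusted p = 0.00154). The MWF mean lay below the median of the exon-level receptor probe sets (5.33) and the SHR mean above their 95th percentile (6.98), so the MWF level is not shown to be above weak signal and no fold is given. With dim probe sets left out it was not tested. The other 64 probe sets had a median difference of -0.053 and ranged from -1.29 to 1.09. The deviation from the gene was -2.07 ± 0.22 (SE; adjusted p = 0.00547). With SHR replicate 2 removed the difference was -2.25 (adjusted p = 0.00382), and both the difference and the deviation passed whichever array was removed. The deviation did not pass with the replicate block (adjusted p = 0.0514).

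In Lrp2 it was probe set 10846033, the 56th of 83. It was 8.93, 9.10, 9.62 and 9.39 in MWF and 10.68, 10.87, 10.66 and 10.10 in SHR, with the strains apart and SHR replicate 4 nearest to MWF. It was 2.49-fold lower in MWF, at -1.32 ± 0.20 (SE; adjusted p = 0.0132), while the median over the other Lrp2 probe sets was -0.19. The deviation of -1.14 ± 0.18 (SE; adjusted p = 0.0332) passed with MWF replicate 3 removed and with no other array removed (-1.22 to -1.04, adjusted p up to 0.102). The difference itself passed whichever array was removed, at -1.22 for SHR replicate 2 (adjusted p = 0.0230). The replicate block ended the call of the difference (adjusted p = 0.0659), and the sympathoadrenal covariate that of the deviation (adjusted p = 0.116).

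In Cdh16 it was probe set 10805668, the 16th of 18, and here the direction was opposite to the rest of the gene. It was 6.81, 6.60, 6.71 and 6.47 in MWF and 7.37, 8.24, 7.80 and 7.51 in SHR, all SHR arrays lying above MWF. It was lower in MWF, at -1.08 ± 0.18 (SE; adjusted p = 0.0218), while the other 17 were all higher, with a median of 0.47. The deviation was -1.48 ± 0.16 (SE; adjusted p = 0.00692). It passed whichever array was removed, at -1.44 for SHR replicate 2 (adjusted p = 0.0258). Removing MWF replicate 2, 3 or 4 or SHR replicate 3 ended the call of the difference (adjusted p up to 0.0715). The replicate block ended both calls (adjusted p = 0.0727 for the difference and 0.105 for the deviation), and the sympathoadrenal covariate ended that of the deviation (adjusted p = 0.101). All 4 MWF arrays lay below the 95th percentile of the exon-level receptor probe sets, so no fold is given, and with dim probe sets left out it was not tested. Probe sequences and strain variants under these probe sets were not analysed here, and their part in the 3 departures was not tested.

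**Figure D3:**
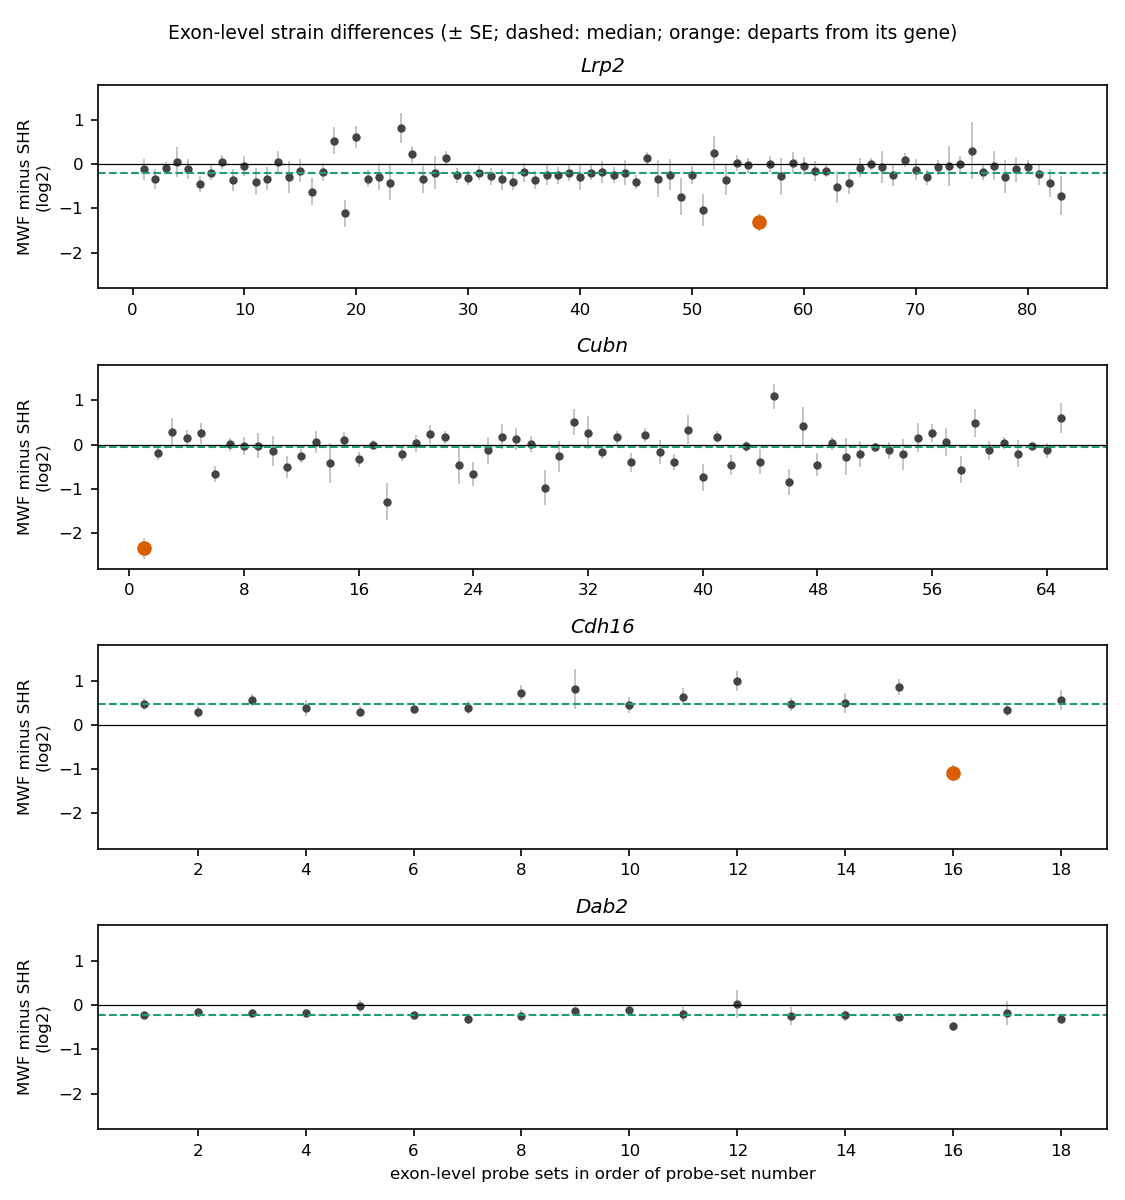
Difference between strains (vertical axis, log2, MWF minus SHR, with SE) of each exon-level probe set of Lrp2, Cubn, Cdh16 and Dab2, in order of probe-set number (horizontal axis), with the gene's median dashed and departing probe sets in orange. Lrp2 and Dab2 lie mostly below 0, Cdh16 mostly above it, and 1 probe set in each of Lrp2, Cubn and Cdh16 falls well below its neighbours.

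**Figure D4:**
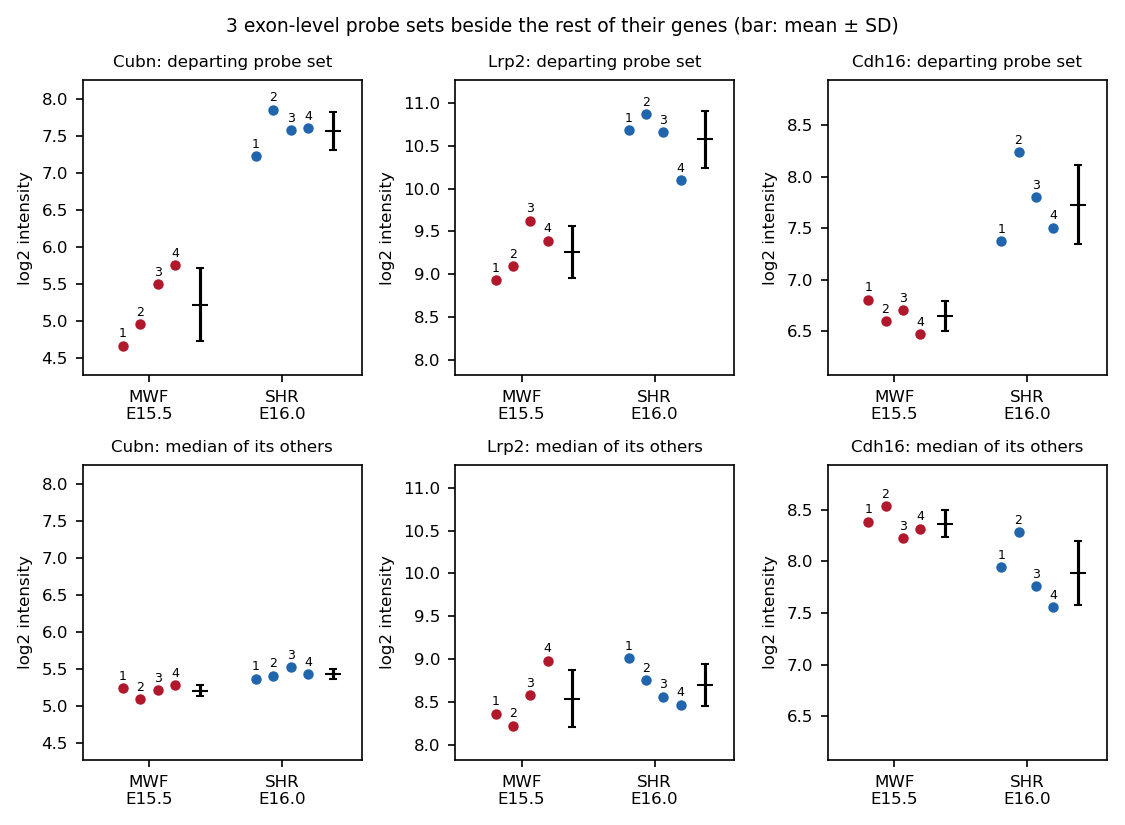
Log2 intensity (vertical axis) per array of the 3 departing probe sets (upper row) and of the median over the other probe sets of the same gene (lower row, same scale), with digits for the replicate and a bar for mean ± SD of 4 arrays. The departing probe sets separate MWF from SHR in all 3 genes, and in Cdh16 the other probe sets lie the other way.

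Around the 9 genes, lists of related genes gave few calls, where 6.58% of all gene-level probe sets were called (3.18% higher and 3.4% lower). The counts of unadjusted p in these lists have no share of all gene-level probe sets beside them. They are therefore not read as more or fewer than usual. Of 26 measured genes of the endocytic and lysosomal machinery none was called in limma, 8 had an unadjusted p under 0.05, and 11 lay above 0 with a median of -0.037. The smallest p-values were those of the proton pump subunit Atp6v1b2 (-0.37 ± 0.10, SE; adjusted p = 0.0527), the lysosomal protease Ctsb (-0.23 ± 0.06; adjusted p = 0.0600) and the inositol phosphatase Inpp5b (0.21 ± 0.06; adjusted p = 0.0709), each without overlap between strains. With SHR replicate 2 removed 3 of the 26 were lower and none was higher.

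Of 20 brush border genes 1 passed, the aminopeptidase gene Anpep, lower in MWF by -0.51 ± 0.11 (SE; adjusted p = 0.0244). It was 8.87 ± 0.20 in MWF and 9.37 ± 0.13 in SHR (SD, n = 4), without overlap. The protocadherin-like gene Cdhr5 (0.25 ± 0.07) and the peptidase gene Mme (-0.33 ± 0.10), next by p, did not pass, and 10 of the 20 lay above 0. The Anpep call ended on removing MWF replicate 3 or SHR replicate 1, 3 or 4 (adjusted p up to 0.0711), and 2 of the 20 were lower with SHR replicate 2 removed.

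Of 28 proximal tubule transporter genes 22 lay above 0, with a median of 0.12, and 1 passed. Slc47a1, an exporter of organic cations, was 7.52, 7.14, 7.41 and 7.54 in MWF and 6.93, 7.08, 6.99 and 6.95 in SHR, higher by 0.41 ± 0.09 (SE; adjusted p = 0.0324). This call held only with MWF replicate 2 or SHR replicate 2 removed and ended on removing any other array (adjusted p up to 0.0888). The organic cation transporter gene Slc22a2 (0.34 ± 0.10) and the water channel gene Aqp1 (-0.73 ± 0.24) did not pass. Slc22a2 passed with SHR replicate 3 removed (0.41, limma adjusted p = 0.0441) and with no other array removed. Aqp1 was 6.80 in SHR replicate 2 and 7.57 to 8.12 in the other SHR arrays, and passed without that array (-0.97, adjusted p = 0.00574). Aqp1 is also made by endothelium and red cells. The list mean was 7.06 to 7.15 in MWF and 7.02 to 7.04 in SHR.

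None of 30 proximal tubule metabolic genes was called in limma, and 4 had an unadjusted p under 0.05. Those with the smallest p were the creatine synthesis gene Gatm (0.37 ± 0.10), the decarboxylase gene Ddc (-1.20 ± 0.33) and the glutathione transferase gene Gsta1 (0.38 ± 0.14). Ddc, which sympathoadrenal cells also make, was 7.82 in SHR replicate 2 and 9.03 to 9.50 in the other SHR arrays, and passed without that array (-1.58, adjusted p = 0.000188). Of 11 regulators of the nephron, the cadherin gene Cdh6 of early proximal tubules was lower by -0.40 ± 0.09 (SE; adjusted p = 0.0261). It was 9.45, 9.26, 9.53 and 9.56 in MWF and 9.96, 9.70, 9.85 and 9.89 in SHR. Removing MWF replicate 1 or 2, or SHR replicate 1, 3 or 4, ended this call (adjusted p up to 0.0752). Lhx1 (0.25 ± 0.13) and Maf (-0.14 ± 0.08) did not pass. So the cadherins Cdh16 and Cdh6 differed in opposite directions on these arrays.

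Of 11 genes of folate handling none was called in limma and 1 had an unadjusted p under 0.05, Folr2, the folate receptor of macrophages. It was at -0.40 ± 0.16 (SE), with 6.38 in SHR replicate 2 and 7.04 to 7.08 in the other SHR arrays, and passed without that array (-0.57, adjusted p = 0.00860). Slc46a1 and Ggh, next by p, were at -0.058 and 0.088. Of 17 genes that encode ligands of megalin and cubilin, 13 lay above 0 with a median of 0.40, none was called in limma, and 4 had an unadjusted p under 0.05. The vitamin B12 carrier gene Tcn2 (-0.34 ± 0.10), the morphogen gene Shh (0.25 ± 0.08) and the chaperone gene Clu (-0.56 ± 0.18) had the smallest p-values, and 3 of the 17 were lower without SHR replicate 2. Many of these ligands, such as Alb, Afp, Apob and Ttr, are liver products, and the mean of 9 measured liver markers ranged from 6.93 to 9.23 in MWF and from 6.50 to 9.20 in SHR. The part of liver RNA in these ligand values was not tested.

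**Figure D5:**
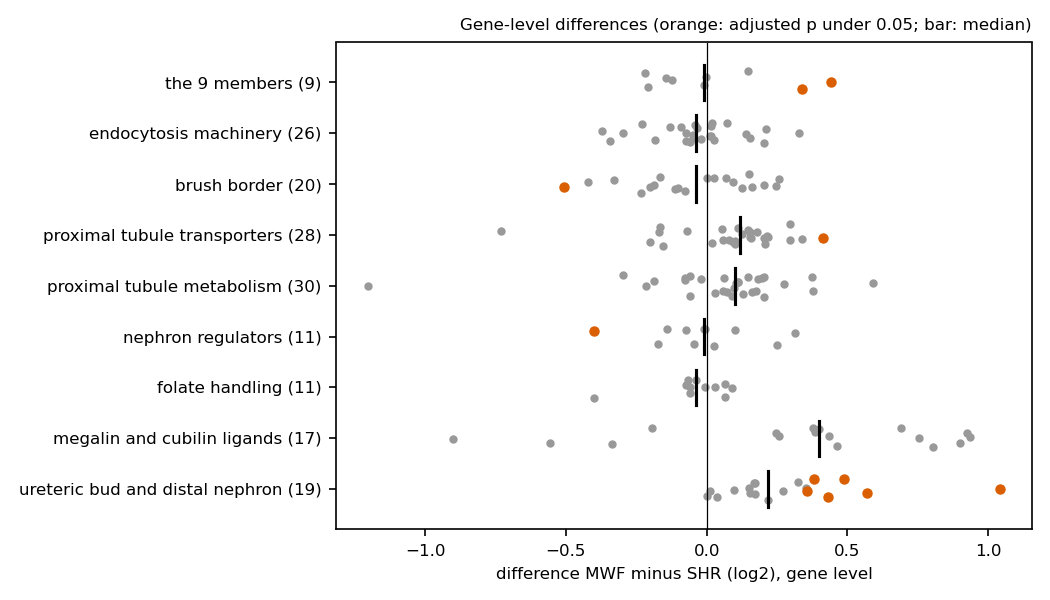
Gene-level difference between strains (horizontal axis, log2, MWF minus SHR) of each measured gene of 8 related lists and of the 9 members, with the number of genes beside each name, called genes in orange and the list median as a bar. The members and the endocytosis list centre near 0, and the ureteric bud and distal nephron list lies wholly above 0.

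The 9 genes did not vary as a unit. With each gene centred on its own mean, the mean over the 9 stayed between -0.052 and 0.083 across arrays, lowest in SHR replicate 3 and highest in MWF replicate 4. MWF replicate 4 had the highest MWF values of Lrp2, Pdzk1 and Miox and the lowest of Dab2 and Folr1. Over the 8 arrays, Pearson's r between members ran from -0.76 (Cdh16 with Dab2) to 0.87 (Cdh16 with Pdzk1ip1), and these pairs include the genes that separate the strains. Among 12863 named probe sets, those most like the mean over the 9 were Gart (r = 0.98), an enzyme gene of purine synthesis, Rpa2 (0.98), of DNA replication, Hspa14 (0.97), a chaperone gene, Taar7g (0.97), an olfactory receptor gene, and Wdr77 (0.97), a partner of an arginine methyltransferase. They were chosen out of many over 8 arrays and for a mean that moved little, and none of them was called between strains (adjusted p of 0.551 to 0.915).

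Red cell markers also moved with strain. All 9 measured lay above 0 and 6 were higher in MWF (Hba-a3, Hbb-b1, Hbg1, Rhd, Hbb and Hbe2), with list means of 9.57 to 10.60 in MWF and 8.60 to 9.11 in SHR. Over all gene-level probe sets 3.18% were called higher and 3.4% lower. Removing 1 array moved the count between 3 (MWF replicate 1 or SHR replicate 4) and 9 (MWF replicate 3). The calls of Hba-a3, Hbb-b1 and Hbg1 passed whichever array was removed, and those of Rhd, Hbb and Hbe2 did not. Of 8 endothelial and stromal markers 7 lay below 0 and Lum was lower (-1.32 ± 0.31, SE), with list means of 9.53 to 9.77 in MWF, 9.63 in SHR replicate 2 and 10.07 to 10.22 in the other SHR arrays. Lum passed with MWF replicate 1 or SHR replicate 2 removed, and removing any other array ended its call (adjusted p up to 0.103) and left the list with none. With SHR replicate 2 removed, 6 of these 8, 7 of the 10 macrophage markers and all 5 measured sympathoadrenal markers were lower in MWF. The part of these cells in the members' values was not tested. With the sympathoadrenal mean as a covariate and SHR replicate 2 left out, no member call passed at either level (a fit chosen after seeing the data, in which the covariate runs almost with strain).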

How the data were processed

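The authors deposited log2 intensities of the same 8 arrays, summarised per gene (21371 probe sets) and per exon probe set (213067). Partek is named, per the submitters' processing notes. Its version, array build, background correction, summarisation and normalization: not given in the sources used here. Array medians lay between 8.17 and 8.21 at gene level and between 7.93 and 7.99 at exon level. Precision is limited by the number of arrays.

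Gene symbols came from GEO's annotation of the platform, updated through a RefSeq table of GRCr8. At gene level 12936 had 1 symbol, 184 several and 8251 none, and at exon level 172924, 1661 and 38482. Those with several or none stayed in the tests without a name.

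The fits used lmFit and eBayes of limma 3.58.1 (R 4.3.3) with strain as the only term, 1 fit per table, and p-values were adjusted by Benjamini-Hochberg over the whole table. Exon departures were fitted the same way on deviations from the gene's median. The code was tested on simulated data. A gene with several probe sets entered the lists by the one with the highest mean. Named were all members, up to 6 called genes per list (the 3 with the smallest p where fewer than 3 were called), the 5 genes most like the members' mean and the called exon probe sets. The liver, sympathoadrenal, and endothelial and stromal lists were exceptions, where not all of the 3 with the smallest p were named. Alb, Afp, Apob and Ttr were named only as examples of a list. Members and lists were chosen with earlier results of these data known. Promoter sequences are RefSeq's (GRCr8). Alternatives changed the normalization, the variance model, dim probe sets, arrays and their weights, the replicate number, a sympathoadrenal covariate and the use of exon medians.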

Additional observations from a re-analysis of the deposited data

Results flagged for a closer look

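In 44 groups of 4 arrays (the 9 genes at gene level and as exon medians, and the 4 called exon probe sets, each in 2 strains), 2 held an array far from the other 3 by Dixon's ratio (the gap to the nearest array over the range of the group). Chance gives about 1 such group in 20. For Cubn at gene level, MWF replicate 2 was 6.64 and the other MWF arrays lay between 6.51 and 6.52 (gap over range 0.886). For Dab2 at gene level, MWF replicate 4 was 10.61 and the others lay between 10.82 and 10.85 (gap over range 0.865). Neither gene was called with or without the array. Without MWF replicate 4, Dab2 was at -0.15 (limma adjusted p = 0.197), and without MWF replicate 2, Cubn was at -0.18 (adjusted p = 0.308).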

How the results depend on the processing

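The gene-level values of Lrp2, Cubn, Amn, Dab2 and Folr1 kept their sign and stayed uncalled in every alternative run that tested them. Without dim probe sets only 3 of the 9 members were tested at gene level (Lrp2, Dab2 and Cdh16). Cdh16 and Pdzk1ip1 kept their sign; their lost calls stand above. Over all gene-level probe sets the 1407 calls became 872 without dim probe sets, 2397 with array weights, 517 with the covariate, 2180 without SHR replicate 2 and MWF replicate 1 together, and 775 to 2279 leaving out 1 array. Member calls at gene level (2) became 1 with quantile normalization, 1 without dim probe sets (where Pdzk1ip1 was not tested), 1 with the variance trend, 0 with the covariate and 0 to 2 leaving out 1 array. Exon-level calls (4112) became 1382 with the covariate and 2405 to 6210 leaving out 1 array, and the 4 member calls became 2 without dim probe sets, 7 without those 2 arrays and 2 to 8. Deviation calls (1641) became 407 with the covariate, 896 without those 2 arrays and 930 to 1368 leaving out 1 array, and the 3 member calls became 1, 1 and 2 to 3, and 1 without dim probe sets. The covariate fit without SHR replicate 2, added after seeing the data, called 58 gene-level probe sets, 96 at exon level and 0 deviations, with 0 members throughout (Cdh16 0.38, Pdzk1ip1 0.084). There the variance inflation of strain was 12.2, against 1.87 with all arrays.

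Whether the replicate numbers pair the samples was not settled. Deviations of same-numbered arrays correlated at 0.284, 0.151, 0.098 and 0.156. No correlations of differently numbered arrays were set beside them. With the replicate block, calls were 1312 at gene level (2 members), 2172 at exon level (2 members) and 357 deviations (1 member), and it ended the calls of the Cubn deviation (0.0514), the Cdh16 difference (0.0727) and deviation (0.105) and the Lrp2 difference (0.0659).

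Several values changed sign, all uncalled in these alternatives. Miox and Pdzk1 were uncalled throughout. Miox was at 0.0031 with median centring, 0.019 with array weights, 0.104 without those 2 arrays, 0.311 with exon medians and -0.107 to 0.112 leaving out 1 array. Pdzk1 was at 0.0145 without those 2 arrays, 0.0784 with exon medians, 0.0719 in the added fit and -0.132 to 0.0922 leaving out 1 array. With the covariate Maf was at 0.0123, Folr2 at 0.0151 and Ggh at -0.0683. In the added fit the reported calls of Etv4, Mal and Lum turned, and values not near 0 such as Clu and Sox18 turned too. Mme was at 0.0339, Folr2 at 0.0499, Ggh at -0.0459, Clu at 0.355, Etv4 at -0.0922, Mal at -0.210, Cited1 at -0.345, Pax2 at -0.321, Lum at 0.305 and Sox18 at 0.159. The causes were not tested.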
